A study of Mus musculus with 2 samples.

Results

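Cells labelled as meningeal and perivascular fibroblasts were examined in a single-cell survey of the postnatal mouse brain. The label names both places, and the rule does not tell them apart. They were picked from the deposited counts by a marker rule: barcodes with at least 500 genes, at least 1500 unique molecular identifiers (UMIs, 1 per captured transcript) and at most 10% mitochondrial UMIs were members if Dcn, Lum and Col1a1 together gave at least 5 UMIs, Kcnj8 and Abcc9 at most 1, Cldn5 and Flt1 at most 2, and Myh11 none. This rule found 56 members among 20741 barcodes past the same quality limits. Library 1 held 45 of them in 11486 barcodes (0.392%, exact Clopper-Pearson 95% interval 0.286 to 0.524%) and library 2 held 11 in 9255 (0.119%, 0.0593 to 0.213%). The intervals cover counting error only and do not overlap, and the mean share was 0.255% ± 0.193 (SD, n = 2 libraries).

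Fibroblasts lay down and remodel collagen, proteoglycans and elastic fibres. In the brain they form the pia, arachnoid and dura and a thin layer around the larger vessels, where they also secrete growth factors, chemokines and retinoic acid. Pericytes, the mural cells of capillaries, and endothelial cells, which line the vessels, sit beside them and make part of the same matrix. Kcnj8 and Abcc9, limited by the rule, encode the potassium channel subunits that mark pericytes, and Myh11 encodes the myosin of smooth muscle.

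The survey covers cells freshly isolated from the brain of C57BL/J mice at postnatal day 10. It has 2 libraries of 1 group, built with droplet 3′ chemistry, and the labels name no genotype, agent or sex. The series used 6 mice that the labels do not tie to a library. The p-values below measure how far differences between classes vary between 2 libraries, a spread that may be technical. Shifts shared by all classes of a library are taken out. There was no treatment contrast, and each comparison is between cell classes of the same suspensions.

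The members carried a median of 6839 UMIs in library 1 and 6731 in library 2, against 3731.5 and 3131 in the barcodes past the quality limits. Their summed UMIs were 331946 and 71126, so levels in library 2, given in CPM (UMIs per 1000000 UMIs of the class in that library), rest on fewer molecules. Of the barcode sequences, 90 occurred in both libraries, and 0 of the members had one of these. A doublet score marked 1 member in each library.

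The 3 genes of the rule chose the members, so their values are a description. Col1a1 (ENSMUSG00000001506, chromosome 11, 94936224 to 94953042, plus strand, mm10), which encodes the main chain of type I collagen, had 2 to 174 UMIs per member in library 1 (median 14) and 5 to 146 in library 2 (median 11). Dcn (ENSMUSG00000019929, chromosome 10, 97479609 to 97518143, plus strand), the collagen-binding proteoglycan decorin, had 0 to 36 UMIs (median 5) and 0 to 18 (median 3). Lum (ENSMUSG00000036446, chromosome 10, 97565128 to 97572703, plus strand), its relative lumican, had 0 to 17 (median 3) and 0 to 9 (median 0). At the edge of the rule, 4 members had exactly 5 UMIs and 1 had 6, while 4 barcodes just outside had 4 UMIs and 8 had 3. Of 58 barcodes with at least 5, the mural limit left out 1 and the Myh11 limit 1.

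Genes that the rule did not use were compared with the label, but they may vary together with the rule's genes. Their levels therefore describe the cells as gated. The general fibroblast list, 15 genes headed by Col1a2, Col3a1 and Serpinf1, was detected in full, and its summed level was 7887 CPM in library 1 and 7972 CPM in library 2 against 1228 and 1136 CPM in pericytes and 167 and 142 CPM in endothelial cells. Col1a2 had 0 to 91 UMIs per member in library 1 (median 12) and 0 to 65 in library 2 (median 8), and Col3a1 had 0 to 57 (median 12) and 0 to 52 (median 8). After each barcode was thinned to 1500 UMIs, Col3a1 had a UMI in 82.1% of members (exact 69.6 to 91.1%), in 34.6% of pericytes, in 0% of endothelial cells and in 0.111% of myeloid barcodes (at least 5 UMIs of the C1q genes). Without thinning the member share was 96.4%. The plot of UMIs per member shows that the ranges of both libraries overlap for these collagens, with several members at or near 0 in library 2.

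**Figure D1:**
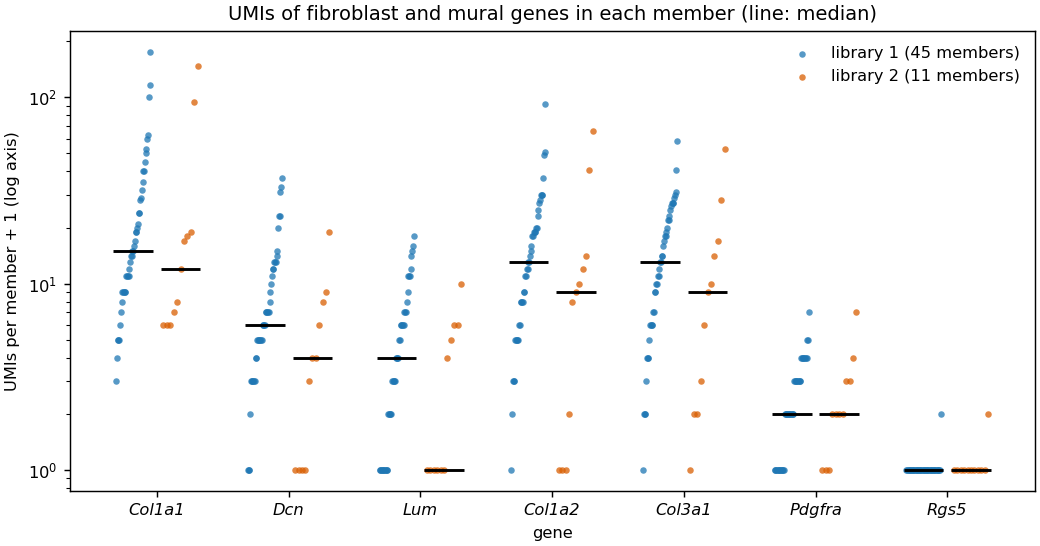
UMIs plus 1 per member on a log axis for the rule genes Col1a1, Dcn and Lum, for Col1a2, Col3a1 and Pdgfra, and for the pericyte gene Rgs5. Each point is 1 member (45 in library 1, 11 in library 2), the horizontal line is the median, and Rgs5 sits at or near 0 in both libraries.

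Not every member had the wider profile. In 4 members Col1a2 and Col3a1 together gave 0 or 1 UMI, and none of these had Dcn or Lum. One in each library, with 9664 and 9536 UMIs, had 43 and 34 UMIs of a neuron list, and these 2 carried 36 of the 37 and 71 of the 71 UMIs of Reln. The other 2, both in library 2 and with 1803 and 2492 UMIs, had 10 and 54 UMIs of a macrophage and microglia list. In library 2, 5 of 11 members had at least 5 UMIs of that list, and 0 of 45 did in library 1; the summed level of the list was 4485 CPM and 36.2 CPM. Myeloid barcodes were also far more numerous in library 2 (2547 against 153). In all barcodes that were not members, the myeloid ones included, the list stood at 7306 against 375 CPM. The part of these transcripts in the levels below was not tested. Without the 4 low-collagen members library 2 held 8 members (0.0864%) and library 1 held 44 (0.383%).

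Pericytes and endothelial cells of the same libraries served as the comparison. Pericytes were gated by at least 3 UMIs of Kcnj8 and Abcc9 (462 and 61 barcodes in libraries 1 and 2) and endothelial cells by at least 5 UMIs of Cldn5 and Flt1 (115 and 136). The UMIs of each class were added up within each library, and 8365 genes passed the filter on low counts in 1 edgeR quasi-likelihood fit that also held smooth muscle (45 and 5) and myeloid barcodes. The 12 genes used in any gate were not tested. A barcode of any comparison class had under 5 UMIs of the rule's genes. A gene was called at a Benjamini-Hochberg adjusted p under 0.05, a log2 difference of 1 or more, and a difference in that direction in library 1 and in library 2. Against pericytes 6.08% of the genes tested (509) were called higher in fibroblasts and 6.6% (552) lower. Against endothelial cells 9.09% (760) were called higher and 10.4% (874) lower. The 298 genes higher against both made up 3.56% and the 176 lower against both 2.1%. The median log2 difference over all genes tested was -0.03 in both comparisons. Counts of the lists below can be read beside these shares, and no list was tested against them. Members of a list that were too low to test are not counted. The filter can keep a gene that is expressed in 1 class alone. Genes at or near 0 in both vascular classes could thus be tested through their fibroblast level, and genes at 0 in fibroblasts through another class. Counts and rankings below partly reflect this filter.

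Fibrillar collagens, the rope-like collagens of connective tissue, were higher in 4 of 6 genes tested against pericytes and in 6 of 6 against endothelial cells, with 0 lower in either. Col1a2, the second chain of type I collagen, stood at 2187 and 2165 CPM in the fibroblasts of libraries 1 and 2, at 233 and 224 CPM in pericytes, and gave 1 UMI in all endothelial barcodes. It was 9.53-fold higher than in pericytes (log2 difference 3.25, SE 0.35, edgeR adjusted p = 6.915e-16). Col3a1, the type III collagen of soft tissues, reached 1934 and 1884 CPM and was 6.18-fold higher than in pericytes (319 and 299 CPM). No Col3a1 UMI was counted in endothelial cells, so the level in fibroblasts was at least 1037-fold higher (against a floor of 3 UMIs over both libraries). Fibroblast and pericyte values did not overlap for either gene. Col5a2, whose product regulates fibril width, was 1.52-fold above pericytes and did not pass the size limit (adjusted p = 0.03122). The list median was a log2 difference of 2.94 against pericytes and 7.99 against endothelial cells, or 5.71 with genes absent from endothelial cells set at their lower bound.

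The other interstitial collagens had the same counts in both comparisons: 10 of 12 tested were higher and 0 lower, with list medians of 4.21 against pericytes and 6.98 (5.68 at the bounds) against endothelial cells. Type VI collagen, which forms beaded filaments around cells, was the most abundant. Col6a1 stood at 358 and 309 CPM in fibroblasts, with 1 UMI in all pericytes and 0 in endothelial cells. Over both libraries its share of UMIs was 856 times that in pericytes, with a counting interval of 151 to 34057, and both calls were lost with DESeq2's test (adjusted p = 0.268 and 0.134). Col6a2 stood at 256 and 323 CPM against 14.2 and 15 CPM in pericytes, a 19.9-fold difference (adjusted p = 1.865e-23). Col12a1, a fibril-associated collagen, differed more between the libraries (301 and 141 CPM), yet both values lay above the 2.29 and 0 CPM of pericytes. Col13a1, a transmembrane collagen, stood at 81.3 and 183 CPM, and its calls were lost with that test too (adjusted p = 0.375 and 0.207).

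Basement membrane genes divided by subunit. Against pericytes 6 of 18 tested were higher (Col4a5, Col4a6, Lama1, Nid2, Col15a1 and Col18a1) and 6 lower (Lama2, Lama4, Lamb1, Lamc1, Nid1 and Agrn), with a list median of -0.37, or -0.05 at the bounds. Col4a1 and Col4a2, the ubiquitous type IV chains, were not called: Col4a1 stood at 1217 and 1069 CPM in fibroblasts and at 1813 and 2078 CPM in pericytes (adjusted p = 0.1266). The minor chain Col4a5 stood at 244 and 253 CPM against 6.88 and 11.2 CPM in pericytes, 27.5-fold higher. Lama1, a laminin chain of the pial basement membrane, stood at 169 and 155 CPM against 30.3 and 22.4 CPM (log2 difference 2.59, adjusted p = 3.02e-09). Lama4, a laminin chain of vessel walls, stood at 63.3 and 28.1 CPM against 371 and 415 CPM and was lower than in both classes. Col15a1, a collagen of outer basement membranes, had 31 and 5 UMIs in fibroblasts and 0 in pericytes and endothelial cells. Its level was at least 66.8-fold and 44.4-fold higher. Against endothelial cells 7 of 18 genes were higher and 3 lower.

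Collagen-making enzymes differed less. Of 21 tested, 5 were higher and 2 lower than in pericytes, and 7 higher and 1 lower than in endothelial cells, with medians of 0.33 and 1.39. Over all genes tested, 6.08% were higher and 6.6% lower than in pericytes, and 9.09% and 10.4% than in endothelial cells. The chaperones and isomerases of the secretory pathway were the highest of the list and were not called in either comparison: Ppib stood at 1723 and 1434 CPM in fibroblasts and at 1440 and 1469 CPM in pericytes. Serpinh1, the collagen chaperone, stood at 1136 and 703 CPM against 760 and 703 CPM. Pcolce, which speeds the trimming of procollagen, was called, at 530 and 759 CPM against 203 and 228 CPM in pericytes and 0 UMIs in endothelial cells. Lox, the enzyme that cross-links collagen and elastin, had 41 and 3 UMIs in fibroblasts and 0 in pericytes, at least 67.6-fold higher, although the call was lost with DESeq2's test (adjusted p = 0.132).

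The small leucine-rich proteoglycans bind collagen fibrils. Dcn and Lum lie next to each other on chromosome 10, followed by Kera and Epyc on the same strand within 97479609 to 97682454. The first pair gave 423 and 219 UMIs in members, while Epyc gave 3 and Kera 0. Dcn and Lum chose the members, so their excess over Kera and Epyc is partly set by the rule. In the cluster Ecm2, Aspn, Omd and Ogn on chromosome 13 (49504810 to 49624501, plus strand), which the rule did not use, Ogn gave 104 UMIs and the others 1, 7 and 4. Ogn, osteoglycin, stood at 298 and 70.3 CPM against 51.8 and 26.2 CPM in pericytes and was called higher (log2 difference 2.49, adjusted p = 1.882e-11). That call was lost when 10 members with high Mgp were left out (adjusted p = 0.757). Aspn and Ecm2 were lower than in pericytes. Bgn, biglycan, was shared: it stood at 759 and 661 CPM in fibroblasts and at 566 and 624 CPM in pericytes (adjusted p = 0.723), and was 3.06-fold above endothelial cells. In all, 6 of the 14 genes could be tested, 3 higher and 2 lower against pericytes.

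Elastic fibre genes, which build the stretchable part of the matrix, were higher in 10 of 13 tested in both comparisons, with 0 lower against pericytes and 1 lower, Ltbp4, against endothelial cells. The medians were 3.72 and 3.66. Mfap2, a microfibril protein, stood at 1235 and 872 CPM against 226 and 164 CPM in pericytes and 175 and 188 CPM in endothelial cells. Mfap4 stood at 392 and 380 CPM in fibroblasts, at 14.7 and 0 CPM in pericytes and at 0 and 1.26 CPM in endothelial cells. Eln, elastin itself, stood at 142 and 169 CPM against 2.29 and 0 CPM in pericytes (log2 difference 6.32, SE 0.56, adjusted p = 2.775e-22). Fbln1 was higher in both comparisons (307 and 98.4 CPM against 50.9 and 29.9 CPM in pericytes).

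Among matricellular proteins, which signal from the matrix without bearing load, 7 of 16 tested were higher and 0 lower than in pericytes. Vtn, vitronectin, is often used as a pericyte marker, but it was also high in fibroblasts: 2561 and 2699 CPM against 4209 and 4403 CPM in pericytes (adjusted p = 0.126) and 1.2 and 0 CPM in endothelial cells. After thinning, 69.6% of members and 98.1% of pericytes had a Vtn UMI. Sparc, an abundant collagen-binding protein, stood at 2060 and 2278 CPM and was not called in either comparison. Tgfbi and Vcan were called higher against both classes. Fn1, fibronectin, was lower than in endothelial cells (256 and 28.1 against 537 and 613 CPM), but it was uneven among members. It stood at 810 CPM in the 10 members of library 1 with high Mgp, described below, above both endothelial values. Members with Slc6a13 UMIs stood at 53.3 and 36.3 CPM in libraries 1 and 2. Mgp, an inhibitor of calcification, stood at 1304 CPM in library 1 and 0 CPM in library 2 and was not called.

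Proteases and their inhibitors were higher in 9 of 16 tested and lower in 2 against pericytes, with a median of 2.02. Serpinf1, a secreted inhibitor of vessel growth, stood at 831 and 858 CPM in fibroblasts, at 6.42 and 3.74 CPM in pericytes and at 34.7 and 22.7 CPM in endothelial cells. It was 166-fold above pericytes (adjusted p = 9.262e-48) and 29.4-fold above endothelial cells (adjusted p = 4.381e-36). The matrix protease Htra1 was higher in both comparisons, 11-fold and 3.17-fold. Ctsk, the collagen-cleaving cathepsin, stood at 362 and 239 CPM against 86.7 and 71 CPM in pericytes. Timp3, an inhibitor of metalloproteases, was 16.4-fold above pericytes and 9.37-fold above endothelial cells. Mmp9, a gelatinase, had 181 and 52 UMIs in pericytes and 0 in fibroblasts, where it was at least 18.6-fold lower; DESeq2's test did not call it (adjusted p = 0.519).

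**Figure D2:**
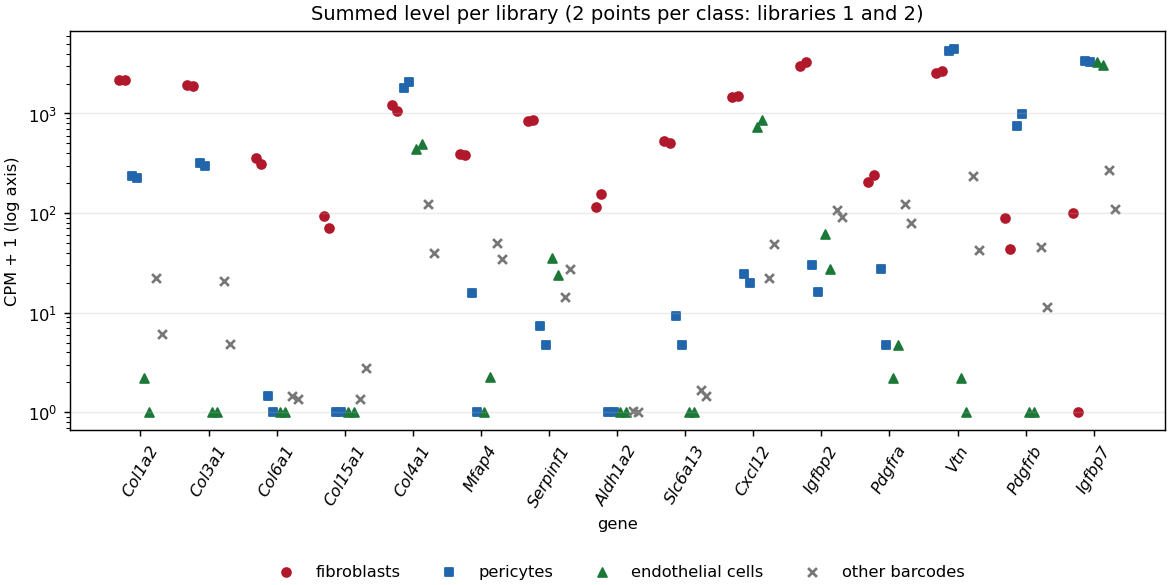
Level (CPM plus 1, log axis) of 15 genes in summed UMIs of fibroblasts, pericytes, endothelial cells and all other barcodes past the quality limits, with 1 point per library. Fibroblast points of Col1a2 sit near 2187 and 2165 CPM above both vascular classes, while Vtn, Pdgfrb and Igfbp7 are highest in pericytes.

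Retinoic acid, made from vitamin A, is a signal of the meninges to the developing cortex. Of 9 genes tested, 7 were higher and 0 lower than in pericytes, and 6 higher and 0 lower than in endothelial cells, with medians of 4.31 and 2.81. Aldh1a2, the main enzyme of the final step, had 38 and 11 UMIs in fibroblasts (114 and 155 CPM) and 0 in pericytes and endothelial cells. It was at least 110-fold and 73.1-fold higher (adjusted p = 3.311e-17 and 7.192e-15), and both calls were lost with DESeq2's test (adjusted p = 0.291 and 0.217). Aldh1a1 stood at 48.2 and 183 CPM. Stra6, the retinol uptake receptor, was higher than in pericytes (93.4 and 56.2 against 0.459 and 0 CPM) and was not called against endothelial cells (67.1 and 66.7 CPM, adjusted p = 0.855). After thinning, 25% of members had an Aldh1a2 UMI, and 51.8% without thinning.

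Transporters that move solutes across the meningeal barriers were higher in 8 of 14 tested and lower in 1 against pericytes, and higher in 7 and lower in 4 against endothelial cells. Slc6a13 (ENSMUSG00000030108, chromosome 6, 121300227 to 121337733, plus strand), which takes up GABA and taurine, stood at 533 and 506 CPM in fibroblasts, at 8.26 and 3.74 CPM in pericytes and at 0 UMIs in endothelial cells. It was 86.7-fold above pericytes (log2 difference 6.19, SE 0.36, adjusted p = 1.691e-44). In all other barcodes of the libraries it stood at 0.668 and 0.45 CPM. Slc22a6, an organic anion transporter, had 55 and 20 UMIs in fibroblasts and 0 in both vascular classes, at least 182-fold and 121-fold higher, and both calls were lost with DESeq2's test (adjusted p = 0.234 and 0.171). Slc7a11, the cystine and glutamate exchanger, stood at 401 and 647 CPM against 5.96 and 0 CPM in pericytes. Slc1a3, a glutamate transporter best known from astrocytes, stood at 512 and 689 CPM against 50 and 33.6 CPM. The endothelial efflux pump Abcb1a had 0 UMIs in fibroblasts and 115 and 154 CPM in endothelial cells, a call lost with DESeq2's test (adjusted p = 0.37). Slc38a2, an amino acid transporter, was higher than in pericytes and lower than in endothelial cells; the first call was lost without the 10 members with high Mgp (adjusted p = 0.242).

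Of 36 secreted signals tested, 20 were higher and 2 lower than in pericytes, and 21 higher and 3 lower than in endothelial cells, with medians of 1.79 and 3.42 (3.38 at the bounds). Cxcl12, a chemokine that guides migrating cells along the meninges, had 0 to 24 UMIs per member in library 1 and 1 to 19 in library 2. Its level was 1461 and 1490 CPM in fibroblasts and 23.4 and 18.7 CPM in pericytes, 70.1-fold apart (adjusted p = 1.11e-31), while endothelial cells held 722 and 864 CPM and were not separated by the test (adjusted p = 0.104). Ptn, the growth factor pleiotrophin, was the highest of the list at 10710 and 9814 CPM, 1.72-fold above pericytes, which were not separated by the test (adjusted p = 0.0743), and 31.2-fold above endothelial cells. Mdk, its relative midkine, was higher in both comparisons (1329 and 703 CPM against 129 and 82.2 CPM in pericytes). Bmp7 and Bmp6, which belong to the bone morphogenetic proteins, were also higher in both. Apoe, a lipid carrier, was called higher in both, but its fibroblast levels were 2431 and 7269 CPM, and library 2 was the one with microglial transcripts. Both Apoe calls were kept under all 13 alternatives, among them the one without members with at least 5 C1q UMIs. The part of microglial transcripts in its level was not tested. Reln was called higher in both on the UMIs of the 2 low-collagen members named above; the gene was too low to test without them, and DESeq2's test did not call it (adjusted p = 0.187 and 0.201).

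In the insulin-like growth factor system, which supports growth of brain and vessels, 5 of 10 tested were higher and 2 lower than in pericytes. Igfbp2, a binding protein that limits access to the growth factors, stood at 2985 and 3276 CPM against 28.9 and 15 CPM in pericytes and 61.1 and 26.4 CPM in endothelial cells. It was 143-fold and 71.5-fold higher (adjusted p = 9.227e-38 and 8.782e-34), and 91.1% of thinned members had a UMI against 3.25% of pericytes and 1.85% of myeloid barcodes. Igfbp7, the binding protein of vascular cells, ran the other way: 99.4 and 0 CPM in fibroblasts, 3383 and 3282 CPM in pericytes and 3259 and 3050 CPM in endothelial cells (log2 differences -5.53 and -5.64). Igf2 itself stood at 1292 and 1040 CPM in fibroblasts and 796 and 796 CPM in pericytes, where the difference was not called (adjusted p = 0.292), and at 0 UMIs in endothelial cells. Igfbp5 was higher in both comparisons, with 143 UMIs in library 1 and 5 in library 2.

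Receptors had calls in both directions against pericytes, with 5 of 33 tested higher and 8 lower (median 0.28). The platelet-derived growth factor receptors separated the classes. Pdgfra, the fibroblast receptor, stood at 205 and 239 CPM against 26.1 and 3.74 CPM in pericytes (log2 difference 3.35, adjusted p = 1.373e-16). Pdgfrb, the mural receptor, stood at 87.4 and 42.2 CPM against 753 and 983 CPM (log2 difference -3.38, adjusted p = 2.156e-15) and was at least 35.2-fold higher than in endothelial cells, which had 0 UMIs. Itgb1, the common integrin chain, was lower than in pericytes. Gpc3, a membrane proteoglycan, was higher in both, although its call against pericytes was lost without the highest 6% of doublet scores and without the filter on low counts.

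Transcription factors of meningeal and mural cells split against pericytes, with 9 of 27 tested higher and 5 lower (median -0.02), and were mostly higher than in endothelial cells (17 higher, 4 lower, median 4.60, or 3.10 at the bounds). Tbx18 stood at 262 and 309 CPM against 88.5 and 71 CPM in pericytes (adjusted p = 3.46e-08). Zic1 (235 and 253 against 354 and 359 CPM), Nr2f2 (178 and 436 against 331 and 370 CPM) and Foxd1 (154 and 98.4 against 119 and 146 CPM) were not called against pericytes. Foxc1, the forkhead factor needed for meninges to form, was not called in either comparison (148 and 127 CPM in fibroblasts, adjusted p = 0.672 and 0.0967). Osr1 had 0 UMIs in both vascular classes and stood at 45.2 and 42.2 CPM. The mural factors Foxs1, Heyl and Ebf1 were lower than in pericytes: Ebf1 stood at 48.2 and 28.1 CPM against 790 and 673 CPM.

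Junction genes were higher in 5 of 13 tested and lower in 3 against pericytes, and higher in 3 and lower in 6 against endothelial cells. Gja1, which encodes connexin 43, stood at 850 and 309 CPM against 9.17 and 0 CPM in pericytes and 108 and 95.7 CPM in endothelial cells. The connexins Gjb2 and Gjb6 were higher in both comparisons (63.3 and 112 CPM, and 99.4 and 70.3 CPM), with all 4 calls lost under DESeq2's test (adjusted p from 0.263 to 0.5). Cdh5, the adhesion protein of endothelial junctions, had 53 and 12 UMIs in fibroblasts (160 and 169 CPM) and 0 in pericytes, and endothelial cells held 328 and 347 CPM. Members with a Cdh5 UMI made up 51.8% (19.6% after thinning), while the endothelial genes Pecam1, Kdr, Ly6c1, Esam, Emcn and Tie1, which the rule did not use, stood at 0 UMIs in members. Cldn5 and Flt1 stood at 0 as well, but the rule limits them.

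Contractile genes were lower in 5 of 9 tested and higher in 0 against pericytes (median -1.60, or -1.34 at the bounds). Against endothelial cells 3 (Tagln, Myl9 and Tpm2) were higher and 0 lower. Myl9, a light chain of myosin, stood at 127 and 155 CPM against 1976 and 2142 CPM (log2 difference -4.00, adjusted p = 2.848e-18). Des, desmin, had 248 and 32 UMIs in pericytes and 0 in fibroblasts, at least 15.7-fold lower. Tagln was called lower, but 11 of 13 alternatives did not call it. Interferon and antigen presentation genes were higher in 0 of 10 tested and lower in 4 against pericytes, led by Ifitm3 (374 and 309 against 1466 and 1454 CPM) and Ifitm1. Against endothelial cells 2 (Ifitm1 and Ifitm2) were higher and 4 lower. The shares over all genes tested were 6.08% higher and 6.6% lower against pericytes, and 9.09% and 10.4% against endothelial cells. Serping1, an inhibitor of complement, was higher in both comparisons, with 37 and 9 UMIs in fibroblasts and 23 and 2 in pericytes. The C1q genes, used for the myeloid gate, had 0 to 1 UMI each in library 1 and 31 to 42 in library 2.

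Outside these lists, the genes highest in both comparisons were Penk, Ranbp3l, Cpz, Tex15, Snhg11, the nonagouti gene, Pik3ap1, Itih2, Clec3b and Sidt1. Penk, an opioid peptide precursor, had 70 and 3 UMIs in fibroblasts and 0 in both vascular classes, at least 103-fold and 68.7-fold higher. Its calls were lost with DESeq2's test (adjusted p = 0.249 and 0.182), as were those of Ranbp3l (0.372 and 0.289) and Itih2 (0.551 and 0.352). Penk was too low to test without the Mgp-high members described below and without the low-collagen members. The same held with at least 10 UMIs of the rule's genes and with at least 5 UMIs of Dcn and Lum alone. Clec3b, the secreted protein tetranectin, stood at 193 and 169 CPM against 2.29 and 0 CPM in pericytes. The nonagouti gene, which encodes a pigmentation signal, stood at 298 and 337 CPM against 2.29 and 0 CPM in pericytes. Tex15 and Pik3ap1 rested on 9 and 5 UMIs, the calls of Pik3ap1 and Cpz were lost when some members were left out, and Snhg11, a neuronal RNA, was carried by 19.6% of members. The lowest in both were Gja4, Rapgef5, Itga4, Car4 and Apold1, each at 0 UMIs in members. Gja4, a vascular connexin, stood at 250 and 217 CPM in pericytes and 127 and 149 CPM in endothelial cells, so it was at least 31.4-fold and 18.5-fold lower in fibroblasts.

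Immediate early and stress genes, which enzymatic dissociation can induce, were higher in 8 of 27 tested and lower in 1 against pericytes, and higher in 2 and lower in 6 against endothelial cells. Over all genes tested, 6.08% were higher and 6.6% lower against pericytes, and 9.09% and 10.4% against endothelial cells. Fos, an immediate early factor, was higher in both, at 331 and 380 CPM against 87.6 and 63.5 CPM in pericytes. The heat shock genes Hspa1a and Hspa1b stood at 117 and 576 CPM and at 217 and 619 CPM in fibroblasts of libraries 1 and 2. Hspa1a was not called without the library 2 members with at least 5 C1q UMIs. The part of these genes in the other differences was not tested.

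Cell cycle genes were uneven among members. In library 1, 37 of 45 members had at most 2 UMIs over the 27 genes of the G2 and M phase list, while 6 had 14 to 90. In library 2, 6 of 11 had at most 2 and 3 had 38 to 93. These 9 members with at least 10 UMIs all had Slc6a13 UMIs. The 3 of library 2 also had 69, 172 and 9 UMIs of the macrophage and microglia list, and 28, 21 and 1 of the neuron list. In library 1, 1 had 55 UMIs of the astrocyte list and 1 had 27 of the neuron list. The others of library 1 had 0 to 3 neuron, 0 or 1 macrophage and 0 to 11 astrocyte UMIs. The part of other cells in these barcodes was not tested. Summed, the G2 and M phase list stood at 994 and 2615 CPM. Over all genes tested, 6.08% were called higher and 6.6% lower than in pericytes. In the G2 and M phase list 1 of 26 tested was called lower and 0 higher than in pericytes, and of 16 S phase genes 3 were lower and 0 higher. Of these, Mcm5 was lost under 10 of 12 alternatives, Dut under 8 of 13 and Cdk1 under 6 of 13, and Mcm6 was kept under all 13. Against endothelial cells Cdc20, Birc5, Cenpa and Hmmr were called higher, and all 4 calls were lost with DESeq2's test and without the library 2 members with at least 5 C1q UMIs.

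The members were not of 1 kind. In library 1, 10 of 45 members (22.2%, exact 11.2 to 37.1%) had 9 to 92 Mgp UMIs, and every other member had 0 to 2. These 10 had 0 UMIs of Slc6a13 and of Vtn. Slc6a13 was counted in 32 of the other members of library 1 (1 to 20 UMIs) and in 7 of library 2 (2 to 8 UMIs), and 3 and 4 members had neither pattern. In library 2, 0 of 11 members were high in Mgp, which allows a share of up to 27.3% by the limit of 3 counts that a count of 0 allows. The groups were drawn after their values had been seen, so what follows is a description with counting intervals and no test. The Mgp-high members had a median of 7465 UMIs and the Slc6a13-positive members of 6366 in library 1 and 8046 in library 2.

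**Figure D3:**
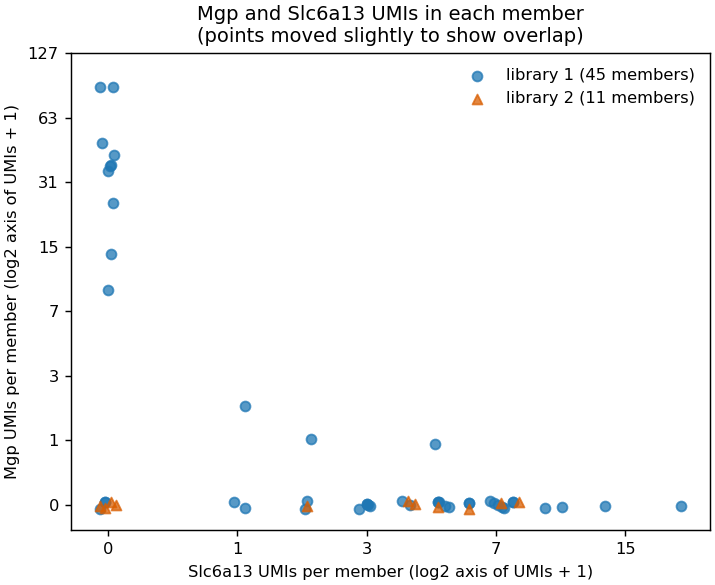
Mgp UMIs against Slc6a13 UMIs in each of the 56 members, on log2 axes of UMIs plus 1. The 10 members with 9 or more Mgp UMIs, all in library 1, sit at 0 Slc6a13 UMIs, and the other members lie along the lower edge.

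Several fibroblast genes were counted in both groups, some at unequal levels. Col1a2 stood at 3052 CPM in the Mgp-high members, against 1985 and 2778 CPM in the Slc6a13-positive members of libraries 1 and 2, a ratio of 1.54 within library 1 (counting interval 1.32 to 1.79). Col6a1 stood at 433 against 355 and 400 CPM, and Cxcl12 at 1143 against 1554 and 1525 CPM. Col3a1 was lower in the Mgp-high members, at 1321 against 2296 and 2361 CPM, a ratio of 0.575 within library 1 (counting interval 0.467 to 0.704). Col1a1, which chose the members, stood at 5017 against 3219 and 5611 CPM. The transcription factors Foxc1 (189 against 142 and 163 CPM) and Zic1 (211 against 231 and 218 CPM) were counted in both groups too. Within library 1 the ratio of Foxc1 between the groups was 1.33 (counting interval 0.692 to 2.46). The proteoglycans of the rule differed: Dcn was 1.98 times as high in the Mgp-high members (1.61 to 2.44), and Lum 4.72 times as high in the Slc6a13-positive members (2.79 to 8.61).

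The Mgp-high members were set apart from the Slc6a13-positive members by a group of genes that were near 0 in the latter. Other members and the vascular classes are not compared here. Ccn3, a matricellular growth regulator, had 188 UMIs in 10 of 10 Mgp-high members, 1 UMI in the Slc6a13-positive members of library 1 and 0 in those of library 2. Fxyd5, a regulator of the sodium pump, had 162 UMIs against 3 and 1, and Igfbp6, a binding protein for Igf2, 128 against 4 and 0. Slc47a1, a cation exporter, had 35 UMIs in 10 of 10 members and 0 in both other groups. Nppc, a natriuretic peptide, and Alpl, the tissue alkaline phosphatase, had 59 and 43 UMIs in 9 members each and 0 in both other groups. The epithelial keratin Krt19 had 29 UMIs in 7 members. Levels of Gja1 (2298 against 329 CPM in library 1), Ogn (966 against 53.3 CPM), Igfbp5 (1410 against 57.7 CPM), Fn1 (810 against 53.3 CPM) and Foxp1 (477 against 79.9 CPM) were also above those of the Slc6a13-positive members, with ratios of 6.99 (5.34 to 9.25), 18.1 (9.87 to 36.4), 24.4 (13.8 to 47.1), 15.2 (8.2 to 30.8) and 5.97 (3.37 to 11).

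The Slc6a13-positive members carried the opposite set in both libraries. S100a6, a calcium-binding protein listed here as a pial marker, stood at 7069 and 5811 CPM in the Slc6a13-positive members of libraries 1 and 2 and at 33.3 CPM in the Mgp-high members. Vtn stood at 3725 and 3450 CPM against 0 UMIs. Slc7a11, Slc22a6, Lama1, Lamc3 and Aldh1a2 had 129, 54, 56, 39 and 37 UMIs in library 1 and 44, 20, 11, 14 and 10 in library 2, and 0 UMIs each in the Mgp-high members. The type IV collagens Col4a1 and Col4a2 were 12.6 (7.13 to 24.6) and 11.9 (6.16 to 26.2) times as high as in the Mgp-high members of the same library. Pdgfra was 3.87 times as high (1.67 to 11) and Tbx18 7.9 times (2.97 to 29.7). Ptn was 7.94 times as high (6.8 to 9.33), at 14813 against 1865 CPM.

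**Figure D4:**
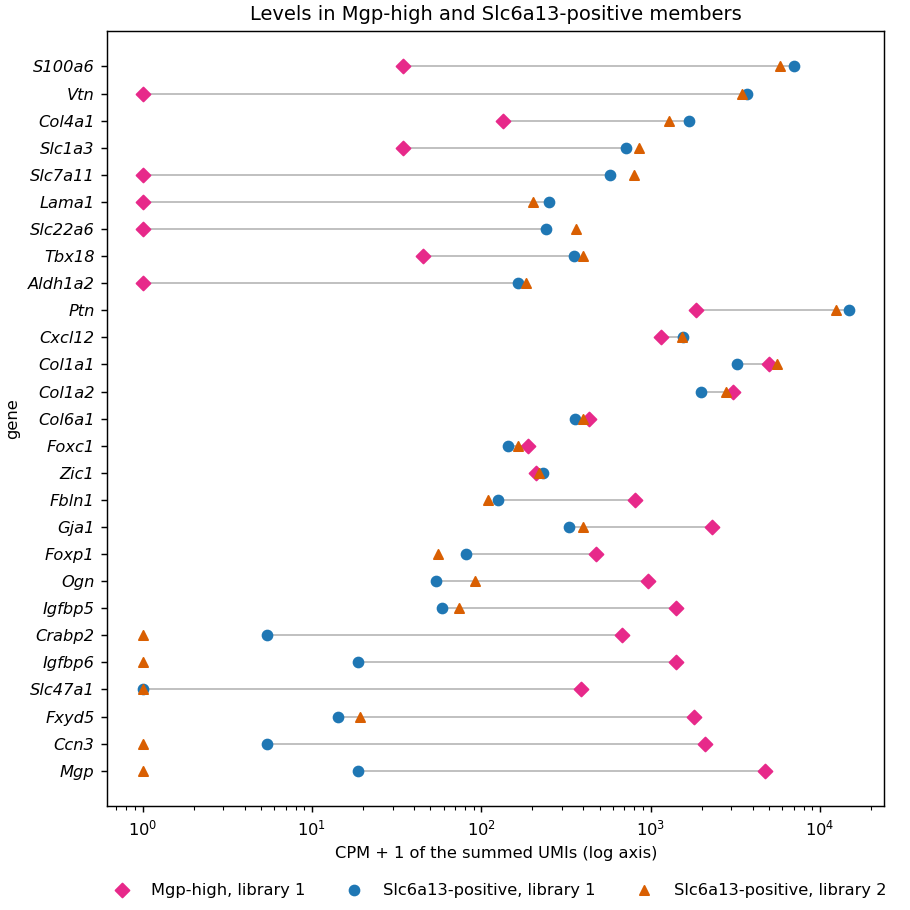
Level (CPM plus 1, log axis) of 27 genes in summed UMIs of the 10 Mgp-high members, the 32 Slc6a13-positive members of library 1 and the 7 of library 2. The middle rows, such as Foxc1 at 189, 142 and 163 CPM, lie together, and the upper and lower rows lie apart in both libraries' Slc6a13-positive members alike.

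Lists of the meningeal layers followed this division in part. The dural list of 14 genes gave 56 to 237 UMIs per Mgp-high member (median 108), 0 to 13 per Slc6a13-positive member of library 1 and 1 to 10 of library 2, so the ranges did not overlap. Its genes Mgp, Ccn3, Fxyd5, Igfbp6, Gja1, Ogn and Foxp1 are among those named above, and Mgp drew the group, so the sum is not an independent mark. Not all of its genes followed the division. Kera and Cilp had 0 UMIs in all members, and Dpp4 had 0 in the Mgp-high members. Fmod stood at 44.4 CPM in the Mgp-high members, against 0 and 54.5 CPM in the Slc6a13-positive members of libraries 1 and 2. The pial list gave 1 to 53 UMIs per Mgp-high member (median 17.5), against 14 to 150 (median 76) and 25 to 108 (median 82), which overlap. The arachnoid list gave 2 to 45 and 2 to 29 UMIs, and it divided by gene: Crabp2 and Slc47a1 had 61 and 35 UMIs in Mgp-high members against at most 1, whereas Slc6a13, Slc22a6 and Aldh1a2 lay in the other group. The perivascular list gave 8 to 66 UMIs per Mgp-high member and 8 to 45 per Slc6a13-positive member of library 1. Its highest genes are Dcn and Lum, which chose the members, and Slc6a13, which drew a group. Its genes Dpep1 and Inmt had 0 UMIs in all members. No layer name was given to either group.

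Lists of other cell types were summed in members, with values that the rule itself limits (Kcnj8, Abcc9, Myh11, Cldn5 and Flt1) named as such. Of 16 pericyte genes, 13 were detected, at a summed 3085 and 3177 CPM against 24679 and 26626 CPM in pericytes; Vtn made up most of this, and Atp13a5 and Art3 stood at 0, as did Kcnj8, which the rule limits. The smooth muscle list stood at 262 and 239 CPM; Cnn1, Lmod1, Des, Actg2 and Pln stood at 0, and Myh11 by the rule. The endothelial list stood at 1054 and 422 CPM, and came mainly from Itm2a and Cdh5. The astrocyte list stood at 1693 and 1125 CPM in members, above the 1255 and 758 CPM of all other barcodes, with at least 5 UMIs in 31 of 45 and 5 of 11 members. Its highest genes in members were Slc1a3 and Gja1, described above, and Sox9, while the astrocyte water channel Aqp4 had 1 UMI in library 1 and 0 in library 2. The part of astrocyte transcripts in these levels was not tested. The ependymal list stood at 440 and 183 CPM, with up to 50 UMIs in 1 member. The neuron list stood at 515 and 2053 CPM, with at least 5 UMIs in 6 of 45 and 7 of 11 members. The olfactory ensheathing and Schwann list stood at 1910 and 225 CPM, and 1 member of library 1 had 364 of its UMIs, 362 of them of Fabp7, a fatty acid binding protein of glia. The erythroid list stood at 3.01 and 1954 CPM, and 3 members of library 2 had 6, 24 and 104 of its UMIs.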

How the data were processed

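Single-cell RNA libraries of postnatal day 10 mouse brain were analysed from the deposited UMI count matrices. The authors aligned and counted reads against mm10 with Cell Ranger 6.1.2, per the submitters' processing notes, and per the labels' protocols each library had 700 M raw reads. The matrices list 32285 features and 12978 and 19508 barcodes, with 51452085 and 45532691 UMIs in libraries 1 and 2. The members, gene lists and marker lists were chosen with earlier results of these data known, and the comparison gates and subsets too.

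Raw counts were summed per library and class and tested with edgeR 4.0.16 (quasi-likelihood, TMM, filterByExpr, library as a block, 5 classes, 4 residual degrees of freedom) in R 4.3.3; DESeq2 1.42.0 was an alternative. Comparison gates could overlap, and 7 barcodes lay in a pair of them. Pericyte, endothelial, smooth muscle and myeloid barcodes had under 5 rule-gene UMIs. Scrublet scores (scanpy 1.11.5) marked the highest 6% per library as doublets, which stayed in. Shares of barcodes with a UMI were thinned to 1500 UMIs. Lower bounds use 3 UMIs over both libraries. Intervals cover counting error only. Simulated counts gave 0 and 3 false calls. They used a mean shared by all classes, apart from the changed genes, with a fixed spread and no library effect. They therefore give no false-call rate for these data. Gene positions are from GENCODE M21.

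Named genes were the rule genes, up to 4 highest and 2 most changed called genes per list, 10 higher and 5 lower genes outside the lists, and of the marker lists the sums with the 3 highest members; other genes in the text were chosen after their values were seen. The classes of a library share its suspension, so the library number pairs them. Not used: other barcodes as a tested class. Some single-gene results are not reported here.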

Additional observations from a re-analysis of the deposited data

Results flagged for a closer look

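A signal lay in barcodes that the comparisons did not use: 9 barcodes failed the quality limits but had at least 5 UMIs of Dcn, Lum and Col1a1 and met the other limits, 1 in library 1 and 8 in library 2. Of these, 5 had at least 2 UMIs of Col1a2 and Col3a1.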

How the results depend on the processing

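With both libraries as replicates of 1 group, the library was a block; without the replicate block, 478 and 492 genes were higher and lower against pericytes (509 and 552 with it) and 729 and 835 against endothelial cells (760 and 874). Counts of called genes stayed within 1.5 times under every alternative tried except these: with the 2 compared classes alone, 336 genes were higher against pericytes, and DESeq2's test called 320 lower against pericytes and 581 lower against endothelial cells. The share of members in library 2 (0.119%, 11 members) fell to 0.0648% (6 members) with at least 5 UMIs of Dcn and Lum alone. It fell to 0.0756% (7 members) both with at least 10 UMIs of the rule's genes and without members with at least 5 C1q UMIs. Each value lay within the counting interval of 0.0593 to 0.213%. Without replicate 1 or 2, the mean share of members ranged from 0.119% to 0.392%. Of 194 calls of named genes, 135 were kept under every alternative in which the gene was tested; 31 were lost under DESeq2's test alone, each with 5 or fewer UMIs in 1 of the classes, and 28 under another alternative. The alternatives that leave out low-collagen members, members with at least 5 C1q UMIs, Mgp-high members or barcodes in both of 2 gates were chosen after seeing the data. With 71126 member UMIs in library 2, 3 UMIs there are 42.2 CPM, and levels below this were not resolved. No called direction of Col1a2, Col3a1, Col6a1, Col15a1, Mfap4, Serpinf1, Aldh1a2, Slc6a13, Cxcl12, Igfbp2, Igfbp7, Pdgfra and Reln was reversed where it was tested. For other genes only the call was followed.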
